A study of Mus musculus with 9 samples.

Results

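Lin28a, Lin28b, Hmga1, Hmga2, Igf2bp1, Igf2bp2, Igf2bp3, Trim71 and Dis3l2 form a set of oncofetal and embryonic RNA-binding and chromatin genes around the let-7 microRNAs. They were taken by name, 9 genes of the 52636 gene IDs counted, and all 9 passed the filter on low counts. These genes and the gene lists set beside them below were chosen with earlier results of these data known. RNA was sequenced from 3 lines of mouse embryonic stem cells, 3 libraries each, every line kept in serum and LIF (leukaemia inhibitory factor), left untreated, and sorted as PECAM-positive, PDGFRA-negative cells. All lines share the deletion of Nanog, the homeodomain pluripotency factor that the labels write as N{delta}. The NanogKO:Esrrb:Nanog line (44JN) and the NanogKO:Esrrb line (44J) are both labelled with the genotype N{delta}:cE:iN and are told apart by title only, and the NanogKO line (44C6) is labelled N{delta} alone. The labels do not say how Esrrb, an orphan nuclear receptor of the naive state, or Nanog was added, or from which promoter. Each group is 1 line, so an added gene and the line that carries it cannot be told apart, and the p-values measure the spread between libraries, which may be technical.

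LIN28 proteins bind the precursors of let-7, block their cutting by Drosha and Dicer, and recruit the uridyl transferases TUT4 and TUT7, whose U-tails mark the precursor for the exonuclease DIS3L2. Mature let-7 in turn pairs through its seed with sites in the 3′ UTRs of Lin28a, Lin28b, Hmga2, the Igf2bp genes, Trim71 and other growth genes and lowers their output, so that LIN28 and let-7 hold each other down. In mouse embryonic stem cells Lin28a is abundant and mature let-7 is low, and let-7 rises when the cells differentiate.

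The mature microRNAs are shown because their shared seed defines the sites counted in the 9 genes. RefSeq (GRCm38.p6) gave 11 mature sequences of the family, 10 of which carried the seed GAGGUAG at bases 2 to 8, while let-7j had GAGGUAU. The seed is in capitals.
mmu-let-7a-5p: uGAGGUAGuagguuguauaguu
mmu-let-7g-5p: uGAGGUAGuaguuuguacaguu
mmu-miR-98-5p: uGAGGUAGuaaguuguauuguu
mmu-let-7j: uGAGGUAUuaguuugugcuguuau

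LIN28 is known to recognise a GGAG motif in the precursor's loop, which the hairpin of let-7g illustrates. Of 12 Mirlet7 and Mir98 hairpins in RefSeq, 9 held GGAG between their arms, and those of Mir98, Mirlet7b and Mirlet7c-2 did not. The hairpins of let-7j and let-7k were not among the 12. The motif is in capitals in the hairpin of Mirlet7g (GRCm38.p6 chr9:106178840-106178927, plus strand).
Mirlet7g: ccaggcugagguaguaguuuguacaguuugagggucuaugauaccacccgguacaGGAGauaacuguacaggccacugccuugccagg

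The DNA match of the common seed, CTACCTC read on the transcript strand, was searched in the longest annotated 3′ UTR of each gene (GENCODE M21, mm10), and a match followed by A was called an 8mer. Of the 9 genes, 8 held at least 1 match, against 10.6% of 13767 tested genes with an annotated 3′ UTR. The list was drawn around let-7 and holds known targets, so a high share follows from the choice of genes. Lin28b, Hmga2, Igf2bp1 and Trim71 each held 4, and only 11 of the 13767 genes held 4 or more. Lin28a held 2, Hmga1, Igf2bp2 and Igf2bp3 held 1 each, and Dis3l2 held none in a 3′ UTR of 350 bases. Long 3′ UTRs hold more matches: among tested genes with a 3′ UTR of like length, with the shorter at least 0.8 times the longer, 17.1% held a match for Hmga2 (3014 bases) and 0.163% held as many as 4, and for Igf2bp1 (6337 bases) the shares were 34.7% and 0.434%. For the genes with 1 match, 9.11% (Hmga1), 12.6% (Igf2bp2) and 13.8% (Igf2bp3) of genes of like length held at least 1. A match is a description of the letters, not a test of binding, and which 3′ UTR the cells used was not measured. The 4 sites of Hmga2 and the single site of Igf2bp2 are printed because these genes had the largest differences between lines. The 2 sites of Lin28a are printed because it was called lower in every comparison of lines, and the first site of Trim71 because Trim71 carried 4 8mers. All are on the minus strand of mm10, 30 bases each, written 5′ to 3′ with the match in capitals.
Lin28a site 1, chr4:134005189-134005218: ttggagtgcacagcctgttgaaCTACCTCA
Lin28a site 2, chr4:134004551-134004580: atgctttgagatcgccacaaacCTACCTCA
Hmga2 site 1, chr10:120364224-120364253: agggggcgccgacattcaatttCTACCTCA
Hmga2 site 2, chr10:120362987-120363016: caataatccccactcctcaataCTACCTCt
Hmga2 site 3, chr10:120362549-120362578: ggacttcctgatttgcaaggaaCTACCTCc
Hmga2 site 4, chr10:120361691-120361720: gttgtacaatcaaaacacactaCTACCTCt
Igf2bp2 site 1, chr16:22059473-22059502: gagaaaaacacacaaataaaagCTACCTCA
Trim71 site 1, chr9:114512472-114512501: aaagtacaacattgcctaagtcCTACCTCA

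Levels are normalised read counts, written CPM and scaled for library size by trimmed-mean (TMM) factors, from libraries of 21808120 to 32496267 counts. Nanog read 221, 289.5 and 333 CPM in the NanogKO:Esrrb:Nanog libraries, 29.7, 35.1 and 30.4 CPM in the NanogKO:Esrrb libraries and 14.3, 14.3 and 16.0 CPM in the NanogKO libraries. Esrrb ran at 1056 to 1151 CPM, 692 to 949 CPM and 253 to 303 CPM in the same 3 lines. Nanog was also 2.13-fold higher in the NanogKO:Esrrb line than in the NanogKO line (adjusted p = 5.92e-05), where the titles differ by Esrrb alone. The genotype labels of these lines differ by both cE and iN, whose parts in this difference cannot be told apart. Esrrb was 1.38-fold higher in the NanogKO:Esrrb:Nanog line than in the NanogKO:Esrrb line (adjusted p = 0.0133), where the titles differ by Nanog alone. That call was lost without NanogKO:Esrrb replicate 1 (0.0633) or NanogKO:Esrrb:Nanog replicate 2 (0.0544). The extent of the Nanog deletion is not stated in the labels. The summed level of 8 stem cell markers was 3844 to 4035 CPM in the NanogKO:Esrrb:Nanog line, 4353 to 4499 CPM in the NanogKO:Esrrb line and 3442 to 3698 CPM in the NanogKO line, with none of the 8 at 0. Every test is edgeR's quasi-likelihood test on all 9 libraries, with p-values adjusted by the Benjamini-Hochberg method over 16198 genes and called under 0.05. Of the 8 stem cell markers, 4 were higher and 0 lower in the NanogKO:Esrrb line than in the NanogKO line. That was 50% called, against 48.5% of all genes. In the NanogKO:Esrrb:Nanog line 4 were higher and 3 lower than in the NanogKO line, 87.5% against 54.4%. Against the NanogKO:Esrrb line 0 were higher and 2 lower, 25% against 13.2%. Means in the 3 lines, in the order above, were 725, 634 and 349 CPM for Zfp42 and 534, 801 and 879 CPM for Dppa5a. In these bulk samples, fewer cells with a transcript and less of it per cell cannot be told apart.

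In the NanogKO:Esrrb line 6 of the 9 genes were lower than in the NanogKO line, 1 was higher and 2 were not called. The background was broad: 48.5% of all tested genes were called, 24.2% higher and 24.2% lower. In the NanogKO:Esrrb:Nanog line, set against the NanogKO:Esrrb line, 2 of the 9 were lower, 1 was higher and 6 were not called, where 13.2% of all genes were called, 5.43% higher and 7.75% lower. The NanogKO:Esrrb:Nanog line had 7 of the 9 lower than the NanogKO line and none higher, also none by DESeq2 or at an unadjusted p under 0.05, against 54.4% of all genes called, 27.2% lower. The median log2 fold change of the 9 genes was -0.53, 0.09 and -0.59 in these 3 comparisons, and that of all tested genes was 0.01, -0.01 and 0.00. Without a test, the libraries of 8 of the 9 genes did not overlap in the first comparison (1 above, 7 below), against 58.4% of all genes (29.4% above, 29.0% below). In the second this held for 5 (2 above, 3 below), against 31.6% (14.9% above, 16.7% below), and in the third for 7, all below, against 61.9% (31.2% above, 30.7% below). The called counts were the same without NanogKO replicate 2, the library highest in trophoblast markers. Of the calls over all genes in the second comparison, 880 higher and 1255 lower, 41.2% were higher, and this share was 59.6% when libraries were scaled by their totals alone. The comparisons share libraries with each other and are given side by side.

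**Figure D1:**
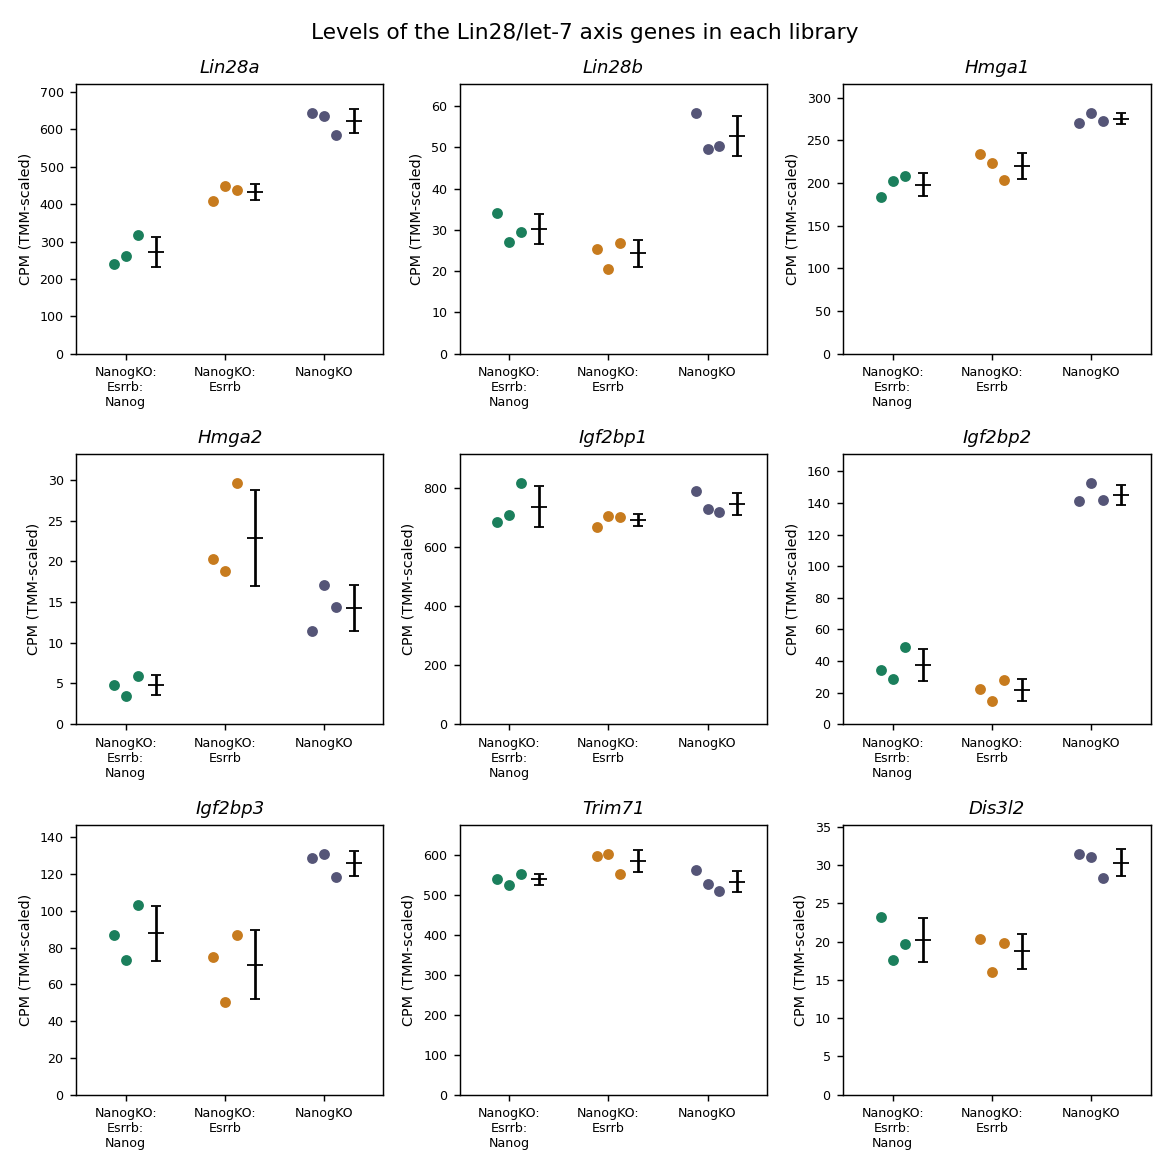
Level of each of the 9 genes in CPM (y axes, starting at 0) in the 3 libraries of each line, as points, with the mean and SD beside them. Lin28a separates the 3 lines with no overlap and is lowest in the NanogKO:Esrrb:Nanog line, Hmga2 is highest in the NanogKO:Esrrb line, Igf2bp2 is above 140 CPM in the NanogKO line only, and Igf2bp1 and Trim71 stay within a narrow range.

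Lin28a (ENSMUSG00000050966, mm10 chr4:134003330-134018841), the LIN28 form of pluripotent cells, was ordered across all 3 lines. It had 239.9, 261 and 317 CPM in NanogKO:Esrrb:Nanog libraries, 408, 448 and 439 CPM in NanogKO:Esrrb libraries and 645, 636 and 585 CPM in NanogKO libraries. No library of one line overlapped those of another, with the NanogKO:Esrrb:Nanog line lowest. Against the NanogKO line, the NanogKO:Esrrb line had a log2 fold change of -0.53 ± 0.09 (SE, adjusted p = 0.000569). The NanogKO:Esrrb:Nanog line differed by -0.66 ± 0.09 (adjusted p = 0.000852) from the NanogKO:Esrrb line, and by -1.19 ± 0.09 (adjusted p = 1.15e-06) from the NanogKO line. Lin28a was the only one of the 9 genes called lower in all 3 comparisons.

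Lin28b (ENSMUSG00000063804, chr10:45376620-45486395), the paralog best known from fetal tissues and cancers, was highest in the NanogKO line. Levels were 34.0, 27.0 and 29.4 CPM in NanogKO:Esrrb:Nanog libraries, 25.5, 20.5 and 26.9 CPM in NanogKO:Esrrb libraries and 58.4, 49.7 and 50.3 CPM in NanogKO libraries. Both lines with Esrrb lay below every NanogKO library. The log2 fold change was -1.12 ± 0.12 (SE, adjusted p = 1.45e-05) in the NanogKO:Esrrb line and -0.81 ± 0.12 (adjusted p = 0.000117) in the NanogKO:Esrrb:Nanog line, each against the NanogKO line. Between the NanogKO:Esrrb:Nanog line and the NanogKO:Esrrb line the difference of 0.31 ± 0.12 was not called (adjusted p = 0.104), although the libraries did not overlap, and it was called with no low-count filter (adjusted p = 0.019) or with the replicate number as a block (0.0352). Lin28a was lower in this comparison, where the estimate for Lin28b was above 0.

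Per kilobase of annotated exon, Lin28a stood far above Lin28b in every library. The level of Lin28a was 68.2 ± 9.9 CPM per kb (SD, n = 3) in the NanogKO:Esrrb:Nanog line, 108 ± 5.2 in the NanogKO:Esrrb line and 156 ± 8.1 in the NanogKO line, and that of Lin28b was 3.32 ± 0.40, 2.68 ± 0.37 and 5.83 ± 0.53. Lin28b made up 4.72% ± 1.03 (SD, n = 3) of the pair per length in the NanogKO:Esrrb:Nanog line, 2.43% ± 0.39 in the NanogKO:Esrrb line and 3.61% ± 0.26 in the NanogKO line. The 3 groups of shares did not overlap, and in each pair of lines the two-sided exact permutation test gave p = 0.1, the smallest that 3 libraries against 3 allow.

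Dis3l2 (ENSMUSG00000053333, chr1:86703808-87050095), the exonuclease that degrades uridylated let-7 precursors, was lower in both lines with Esrrb. Its levels were 23.2, 17.6 and 19.7 CPM in NanogKO:Esrrb:Nanog libraries, 20.3, 16.0 and 19.8 CPM in NanogKO:Esrrb libraries and 31.5, 31.1 and 28.3 CPM in NanogKO libraries. Every NanogKO library lay above all others, while the lines with Esrrb overlapped. The log2 fold change was -0.70 ± 0.12 (SE, adjusted p = 0.000477) in the NanogKO:Esrrb line and -0.59 ± 0.12 (adjusted p = 0.00125) in the NanogKO:Esrrb:Nanog line, each against the NanogKO line, and 0.11 ± 0.12 (adjusted p = 0.591) between the lines with Esrrb. Dis3l2 was the member with no seed match, and its 2 differences from the NanogKO line had the direction of Lin28b.

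Of the chromatin proteins, Hmga2 (ENSMUSG00000056758, chr10:120361275-120476469), an AT-hook architectural factor and the classic let-7 target, was the one member higher in the NanogKO:Esrrb line than in either other line. It had 4.87, 3.50 and 5.95 CPM in NanogKO:Esrrb:Nanog libraries, 20.2, 18.8 and 29.6 CPM in NanogKO:Esrrb libraries and 11.4, 17.1 and 14.4 CPM in NanogKO libraries. The groups did not overlap. In the NanogKO:Esrrb:Nanog line its log2 fold change was -2.25 ± 0.22 (SE, adjusted p = 0.000104) against the NanogKO:Esrrb line and -1.58 ± 0.23 (adjusted p = 0.000116) against the NanogKO line, or 4.76-fold and 2.99-fold lower. These 2 calls held in every alternative that was run. Hmga2 was 1.59-fold higher in the NanogKO:Esrrb line than in the NanogKO line (log2 fold change 0.67 ± 0.21, adjusted p = 0.0175). That call was lost without NanogKO replicate 1 (adjusted p = 0.0789), NanogKO replicate 3 (0.0558) or NanogKO:Esrrb replicate 3 (0.0745), with log2 fold changes of 0.51, 0.65 and 0.45. Counts behind the lowest group were 132, 87 and 170 reads, so Hmga2 was the least deeply covered of the 9 genes there. Gata6 and Pdgfra, a transcription factor and the receptor that mark primitive endoderm, were also highest in the NanogKO:Esrrb line, although the cells were sorted as PDGFRA-negative. Pecam1, the gene of the other sort marker, was 1.64-fold lower in the NanogKO:Esrrb line than in the NanogKO line (adjusted p = 0.000176). Its means were 49.8, 61.9 and 101 CPM in the NanogKO:Esrrb:Nanog, NanogKO:Esrrb and NanogKO lines. Gata6 had 3.62, 10.6 and 6.48 CPM in NanogKO:Esrrb:Nanog libraries, 13.5, 39.0 and 22.9 CPM in NanogKO:Esrrb libraries and 1.39, 6.09 and 3.51 CPM in NanogKO libraries. Pdgfra had 1.77, 3.86 and 3.08 CPM in NanogKO:Esrrb:Nanog libraries, 5.84, 11.4 and 14.1 CPM in NanogKO:Esrrb libraries and 0.463, 4.43 and 1.97 CPM in NanogKO libraries. They were 6.77-fold (adjusted p = 0.000761) and 4.47-fold (adjusted p = 0.00474) higher in the NanogKO:Esrrb line than in the NanogKO line. Both were lower in the NanogKO:Esrrb:Nanog line than in the NanogKO:Esrrb line, by 3.67-fold (adjusted p = 0.022) and 3.60-fold (adjusted p = 0.0337). Leaving out single libraries ended this second call of Gata6 in 3 cases (NanogKO:Esrrb replicate 2 and NanogKO:Esrrb:Nanog replicates 1 and 3, adjusted p 0.0555 to 0.068) and that of Pdgfra in 6 (NanogKO replicate 3, NanogKO:Esrrb replicates 2 and 3 and every NanogKO:Esrrb:Nanog replicate, 0.0506 to 0.106). Neither was called between the NanogKO:Esrrb:Nanog line and the NanogKO line, where Hmga2 was lower. The primitive endoderm list as a whole was mixed. Of 11 tested markers, 5 were higher and 3 lower in the NanogKO:Esrrb line than in the NanogKO line. The lower ones were Dab2, Lamb1 and Lrp2 (log2 fold changes -1.33, -1.35 and -1.96), and Lama1 was highest in the NanogKO:Esrrb:Nanog line. The part of primitive endoderm cells in the Hmga2 result was not tested.

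Hmga1 (ENSMUSG00000046711, chr17:27556497-27563674), the related AT-hook protein common in proliferating embryonic cells, differed less. It had 183, 203 and 208 CPM in NanogKO:Esrrb:Nanog libraries, 234, 223 and 203 CPM in NanogKO:Esrrb libraries and 270.1, 283 and 273 CPM in NanogKO libraries. Each NanogKO library lay above all others, and the lines with Esrrb overlapped. Hmga1 had a log2 fold change of -0.32 ± 0.07 (SE, adjusted p = 0.00212) in the NanogKO:Esrrb line and -0.47 ± 0.07 (adjusted p = 0.000118) in the NanogKO:Esrrb:Nanog line, each against the NanogKO line, and -0.15 ± 0.07 (adjusted p = 0.171) between the lines with Esrrb. The near-identical Hmga1b was counted at 96.0 to 115 CPM, 119 to 122 CPM and 151 to 157 CPM in the 3 lines in the same order. Its log2 fold changes against the NanogKO line were -0.34 in the NanogKO:Esrrb line (adjusted p = 0.00168) and -0.50 in the NanogKO:Esrrb:Nanog line (adjusted p = 9.44e-05). How the authors' counting split reads between the 2 copies is not given in the sources used here, which leaves each level uncertain. Per length, Hmga2 made up 0.751% ± 0.19 (SD, n = 3) of Hmga1 plus Hmga2 in the NanogKO:Esrrb:Nanog line, 3.20% ± 1.0 in the NanogKO:Esrrb line and 1.60% ± 0.27 in the NanogKO line (two-sided exact permutation p = 0.1 in each pair of lines).

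**Figure D2:**
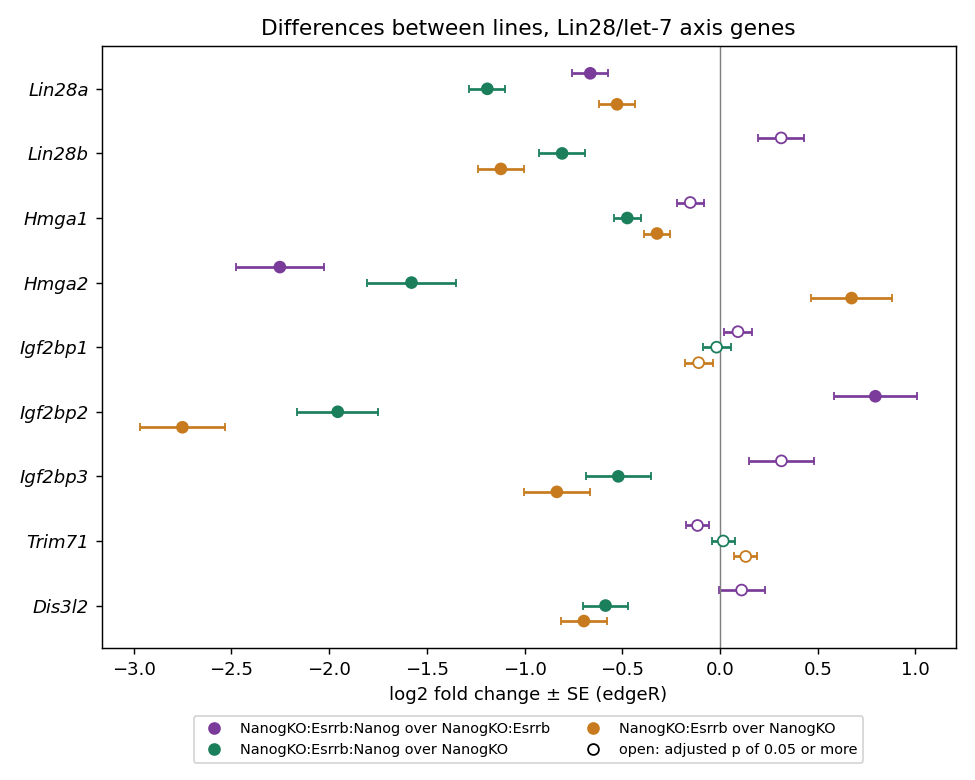
Log2 fold change with its SE (x axis) of each of the 9 genes (rows) in the 3 comparisons, with filled points called at an adjusted p under 0.05. Igf2bp2 reaches -2.75 in the NanogKO:Esrrb line over the NanogKO line, Hmga2 is positive there and at -2.25 in the NanogKO:Esrrb:Nanog line over the NanogKO:Esrrb line, and Igf2bp1 and Trim71 have open points throughout.

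The Igf2bp genes encode RNA-binding proteins that stabilise and place mRNAs such as those of Igf2 and Myc, and the 3 paralogs differed from each other across the lines. Igf2bp2 (ENSMUSG00000033581, chr16:22059009-22163299) had 34.6, 28.9 and 48.7 CPM in NanogKO:Esrrb:Nanog libraries, 22.1, 14.8 and 28.1 CPM in NanogKO:Esrrb libraries and 141, 153 and 142 CPM in NanogKO libraries. The NanogKO libraries stood far above the rest and the other groups did not overlap. It was 6.73-fold lower in the NanogKO:Esrrb line than in the NanogKO line (log2 fold change -2.75 ± 0.22 SE, adjusted p = 1.88e-06), the largest difference of the 9 genes in any comparison. It was 3.88-fold lower in the NanogKO:Esrrb:Nanog line than in the NanogKO line (log2 fold change -1.96 ± 0.21, adjusted p = 1.17e-05). Both calls held in every alternative that was run. Igf2bp2 was 1.74-fold higher in the NanogKO:Esrrb:Nanog line than in the NanogKO:Esrrb line (log2 fold change 0.79 ± 0.21, adjusted p = 0.0299), a call lost when only these 2 lines were fitted (adjusted p = 0.0607) and without NanogKO:Esrrb replicate 1 (0.0877), NanogKO:Esrrb replicate 2 (0.0515) or NanogKO:Esrrb:Nanog replicate 3 (0.106).

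Igf2bp3 (ENSMUSG00000029814, chr6:49085223-49214957) had the same order of means with smaller steps. It had 87.0, 73.4 and 103 CPM in NanogKO:Esrrb:Nanog libraries, 74.8, 50.4 and 87.0 CPM in NanogKO:Esrrb libraries and 129, 131 and 118 CPM in NanogKO libraries. Each NanogKO library was above all others, and the lines with Esrrb overlapped. The log2 fold change was -0.83 ± 0.17 (SE, adjusted p = 0.00155) in the NanogKO:Esrrb line and -0.52 ± 0.17 (adjusted p = 0.0193) in the NanogKO:Esrrb:Nanog line, each against the NanogKO line. The second call was lost without NanogKO:Esrrb:Nanog replicate 2 (log2 fold change -0.40, adjusted p = 0.085). Between the lines with Esrrb the difference was 0.31 ± 0.17 (adjusted p = 0.252; 0.00161 with no low-count filter). Malsu1 on the opposite strand shares 1529 exon bases with Igf2bp3, and whether counting used strand is not given in the sources used here. Malsu1 itself was at 17.8 to 21.5 CPM over the 9 libraries and was not called in any comparison.

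Igf2bp1 (ENSMUSG00000013415, chr11:95957163-96005940), with 4 seed matches, was abundant in every library. It had 686, 709 and 817 CPM in NanogKO:Esrrb:Nanog libraries, 668, 705 and 703 CPM in NanogKO:Esrrb libraries and 791, 729.7 and 719 CPM in NanogKO libraries. The NanogKO:Esrrb libraries lay just below the NanogKO libraries and the other groups overlapped. No comparison was called, with log2 fold changes of -0.11 ± 0.07 (SE, adjusted p = 0.23) for the NanogKO:Esrrb line and -0.02 ± 0.07 (adjusted p = 0.855) for the NanogKO:Esrrb:Nanog line, each against the NanogKO line, and 0.09 ± 0.07 (adjusted p = 0.449) between the lines with Esrrb. The second of these lay so close to 0 that its sign turned with the scaling. Per length, Igf2bp1 made up 82.9% ± 1.9 (SD, n = 3) of the 3 Igf2bp genes in the NanogKO:Esrrb:Nanog line, 86.1% ± 3.4 in the NanogKO:Esrrb line and 68.7% ± 1.4 in the NanogKO line. The share of Igf2bp2 was 5.43% ± 0.91, 3.50% ± 0.96 and 17.5% ± 1.05 in the same lines, and that of Igf2bp3 was 11.7% ± 1.1, 10.4% ± 2.4 and 13.8% ± 0.50. The two-sided exact permutation test of the Igf2bp1 share gave p = 0.1 for each line with Esrrb against the NanogKO line, and p = 0.3 between the lines with Esrrb, where 0.1 is the smallest possible.

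**Figure D3:**
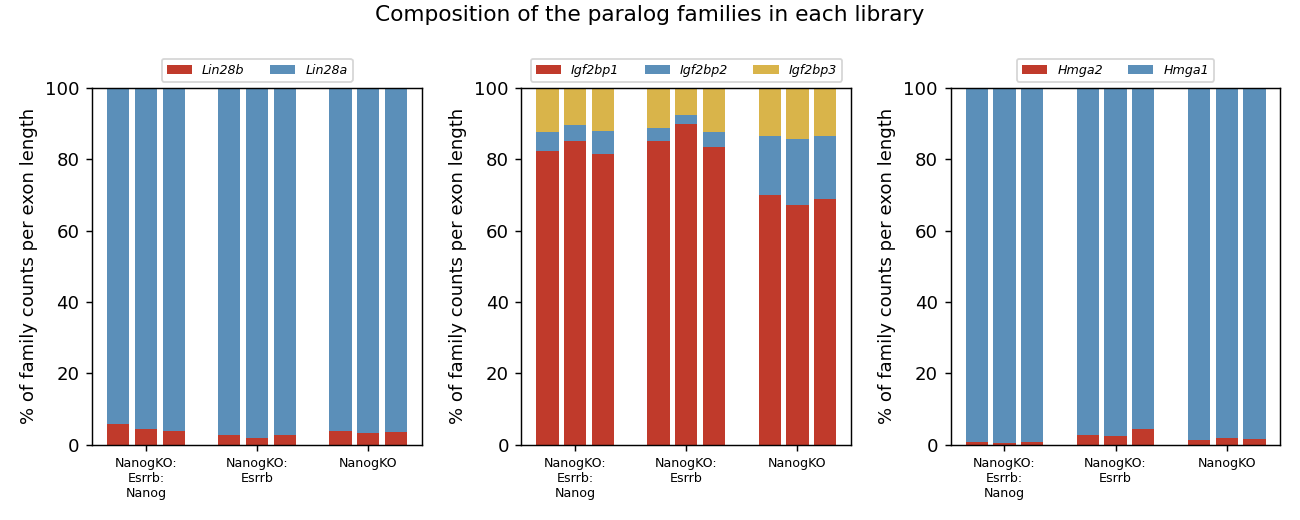
Share of each paralog in its family (y axes, % of CPM per kb of annotated exon) in each of the 9 libraries, one bar per library. Igf2bp2 fills 16.3% to 18.4% of the Igf2bp bar in NanogKO libraries and 2.47% to 6.35% in the others, while Lin28a and Hmga1 fill nearly the whole bar of their pairs everywhere.

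Trim71 (ENSMUSG00000079259, chr9:114507133-114564369), also called Lin41, is an RNA-binding ubiquitin ligase and an ancient let-7 target, known as such from Caenorhabditis elegans. It had 542, 526 and 553 CPM in NanogKO:Esrrb:Nanog libraries, 597, 605 and 553 CPM in NanogKO:Esrrb libraries and 564, 528 and 510.5 CPM in NanogKO libraries. The NanogKO libraries overlapped both other groups, and the NanogKO:Esrrb:Nanog libraries lay just below the NanogKO:Esrrb libraries. Trim71 had a log2 fold change of 0.13 ± 0.06 (SE, adjusted p = 0.0842) for the NanogKO:Esrrb line and 0.02 ± 0.06 (adjusted p = 0.83) for the NanogKO:Esrrb:Nanog line, each against the NanogKO line, and -0.12 ± 0.06 (adjusted p = 0.232) between the lines with Esrrb. The first was called without NanogKO:Esrrb replicate 3 (log2 fold change 0.17, adjusted p = 0.0425), and the second turned to -0.02 without NanogKO replicate 3.

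The 4 genes that held 4 seed matches each did not share a direction. Holding the same number, they cannot show whether the number matters. Against the NanogKO line, the NanogKO:Esrrb line had Lin28b lower, Hmga2 higher, and Igf2bp1 and Trim71 not called. Igf2bp2, with a single 8mer, differed most. Over all tested genes with an annotated 3′ UTR, the members left out, the median log2 fold change of the NanogKO:Esrrb line over the NanogKO line was 0.00 for 12309 genes with no match, -0.04 for 1272 genes with 1 match and -0.11 for 177 genes with 2 or more. In 3′ UTRs of 1000 to 3000 bases the same medians were -0.02, -0.03 and 0.07, so the order did not hold there, and in longer 3′ UTRs they were -0.07, -0.11 and -0.17. For the NanogKO:Esrrb:Nanog line over the NanogKO:Esrrb line they were 0.00, 0.03 and 0.01 over all lengths. These medians are a description with no test, and their quartiles overlapped widely.

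**Figure D4:**
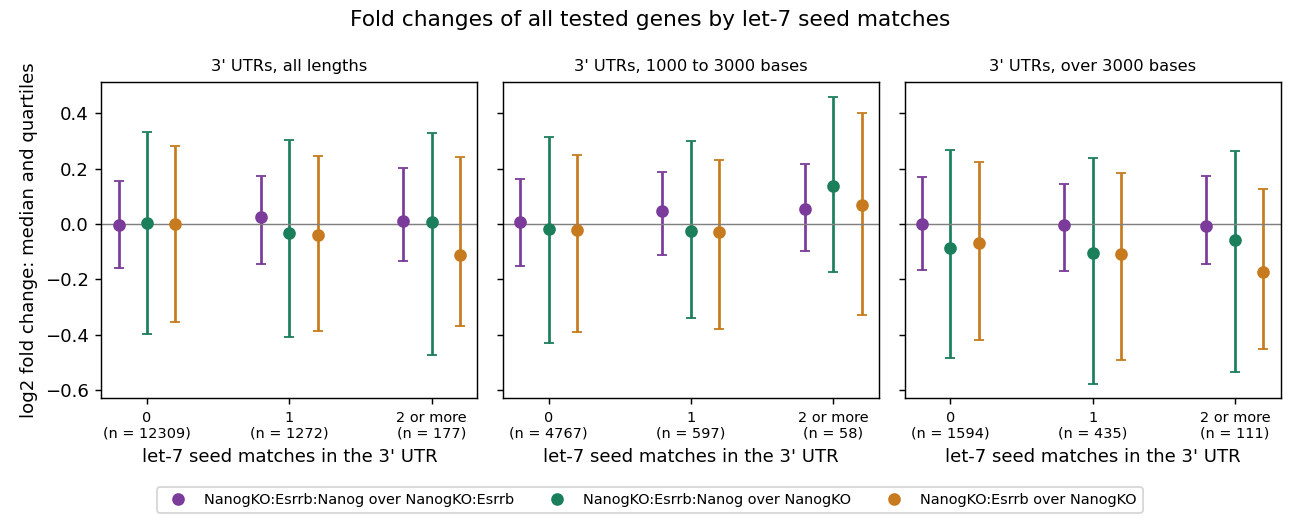
Median log2 fold change with quartiles (y axis) of tested genes by the number of let-7 seed matches in the 3′ UTR (x axis), for all 3′ UTRs and for 2 ranges of length, in the 3 comparisons. All medians lie between -0.173 and 0.136, within the quartiles of the genes with no match.

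The let-7 genes themselves gave almost no counts, and rRNA-depleted libraries of this kind do not measure mature microRNAs. Of 12 Mirlet7 and Mir98 genes, 9 had no count in any library, and the most, 5 counts over all 9 libraries, fell on Mirlet7g. A count of 0 allows up to 0.0944 to 0.139 CPM, depending on the library's depth, and covers counting error only. The host genes were well covered. Wdr82, whose intron holds Mirlet7g, had 310.2 to 322 CPM in NanogKO:Esrrb:Nanog libraries, 305 to 312 CPM in NanogKO:Esrrb libraries and 275 to 289.8 CPM in NanogKO libraries, and was called only for the NanogKO:Esrrb:Nanog line over the NanogKO line (log2 fold change 0.14, adjusted p = 0.03). That call was lost with no low-count filter and without any of NanogKO replicates 1, 2 and 3 or NanogKO:Esrrb:Nanog replicates 2 and 3 (adjusted p 0.0606 to 0.131). Huwe1, a ubiquitin ligase gene that hosts Mirlet7f-2 and Mir98, was not called, but was higher in the NanogKO:Esrrb:Nanog line than in the NanogKO:Esrrb line with no low-count filter (adjusted p = 0.0458) and than in the NanogKO line without NanogKO replicate 1 (0.0445).

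Among 20 genes of let-7 processing, all tested, 5 were higher and 4 lower in the NanogKO:Esrrb line than in the NanogKO line, 45% called where all genes gave 48.5%. The lower count was 7 with library totals alone and when at least 5 CPM in 3 libraries were required. Tut4, the uridyl transferase recruited by LIN28, was lower: 71.6 to 83.6 CPM in NanogKO:Esrrb:Nanog libraries, 64.7 to 80.9 CPM in NanogKO:Esrrb libraries and 118 to 130.4 CPM in NanogKO libraries, a log2 fold change of -0.78 ± 0.09 (SE, adjusted p = 2.43e-05) in the NanogKO:Esrrb line over the NanogKO line. Msi2, a Musashi RNA-binding protein, was higher there by 0.63 ± 0.09 (adjusted p = 0.000126) and Tarbp2, a partner of Dicer, by 0.49 ± 0.10 (adjusted p = 0.00149). In the NanogKO:Esrrb:Nanog line over the NanogKO:Esrrb line 1 of the 20 was higher and 2 were lower, 15% called where all genes gave 13.2%. Tut7, the companion transferase of Tut4, was higher by 0.24 ± 0.06 (adjusted p = 0.0278), a call lost without NanogKO:Esrrb replicate 1 or 2 or NanogKO:Esrrb:Nanog replicate 2 or 3 (adjusted p 0.068 to 0.117) and with no low-count filter (0.0734). Hnrnpa1, which binds let-7 precursors, had a log2 fold change of -0.24 ± 0.05 (adjusted p = 0.0142), and this call was lost without NanogKO:Esrrb replicate 1 (0.0587). The other lower gene was Dicer1, the nuclease that cuts let-7 precursors (-0.32 ± 0.09, adjusted p = 0.0406). Its call was lost with library totals alone (0.0933), with only the 2 groups fitted (0.0558) and without NanogKO replicate 3, NanogKO:Esrrb replicate 1 or 3 or NanogKO:Esrrb:Nanog replicate 2 or 3 (0.0619 to 0.156), so none of the 20 was lower without NanogKO:Esrrb replicate 1. Against the NanogKO line the NanogKO:Esrrb:Nanog line had 5 higher and 8 lower, 65% called against 54.4% of all genes. The 2 transferases thus moved apart against the NanogKO line: in the NanogKO:Esrrb:Nanog line Tut4 was lower (log2 fold change -0.66, adjusted p = 6.43e-05) and Tut7 higher (0.34, adjusted p = 0.000669).

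Of 20 other genes known as let-7 targets, 12 were lower and 3 higher in the NanogKO:Esrrb line than in the NanogKO line, 75% called against 48.5% of all genes, with a median log2 fold change of -0.32 against 0.01 for all genes. The counts were 11 lower and 4 higher in the NanogKO:Esrrb:Nanog line over the NanogKO line, 75% called against 54.4%. Over the NanogKO:Esrrb line 5 were called in each direction, 50% against 13.2%, where the higher count was 1 without NanogKO:Esrrb replicate 1, 2 without NanogKO:Esrrb replicate 3, 3 without NanogKO:Esrrb:Nanog replicate 2 or 3, and 3 with only the 2 groups fitted. Mycn, a MYC family transcription factor, had 105, 84.9 and 125 CPM in NanogKO:Esrrb:Nanog libraries, 155, 127 and 166 CPM in NanogKO:Esrrb libraries and 392, 383 and 395 CPM in NanogKO libraries. The groups did not overlap, and its log2 fold change was -1.38 ± 0.13 (SE, adjusted p = 5.45e-06) in the NanogKO:Esrrb line over the NanogKO line and -0.51 ± 0.13 (adjusted p = 0.0206) in the NanogKO:Esrrb:Nanog line over the NanogKO:Esrrb line. The second call was lost without NanogKO:Esrrb replicate 1 (adjusted p = 0.0773) or 3 (0.0748) or NanogKO:Esrrb:Nanog replicate 2 (0.0682). Nr6a1, an orphan nuclear receptor that silences pluripotency genes on differentiation, held 8 seed matches, the most of all tested genes. It stepped down like Lin28a, at 80.3 to 89.7 CPM, 108 to 126 CPM and 169.8 to 179 CPM in the 3 lines, with log2 fold changes of -0.59 ± 0.07 (adjusted p = 3.56e-05) and -0.44 ± 0.07 (adjusted p = 0.00203) in those comparisons. Arid3b, a DNA-binding protein with 1 match, differed by -0.34 ± 0.06 in each of them (adjusted p = 0.000904 and 0.0047). Of the 20, 13 held a match and 7 did not, Mycn among the 7.

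Genes of the IGF system, which IGF2BP proteins and LIN28 are known to touch, were counted next. Of 12 tested genes of 13 listed, 8 were lower in the NanogKO:Esrrb line than in the NanogKO line and none was higher, where 24.2% of all genes were lower. Igf2r, Igfbp2, Igfbp3 and Igfbp4 were not called there (adjusted p 0.111 to 0.5525). In the NanogKO:Esrrb:Nanog line 10 were lower than in the NanogKO line and none was higher, against 27.2% of all genes lower, and 7 of 12 were lower without NanogKO replicate 2. Igf2r and Igfbp2 were not called in this comparison. The median log2 fold change of the 12 was -0.97 and -0.78 in these 2 comparisons. The insulin-like growth factor gene Igf2 had 3.54, 4.59 and 4.66 CPM in NanogKO:Esrrb:Nanog libraries, 7.12, 16.7 and 11.5 CPM in NanogKO:Esrrb libraries and 43.1, 115 and 83.1 CPM in NanogKO libraries, with log2 fold changes of -2.77 ± 0.34 (SE, adjusted p = 4.68e-05) in the NanogKO:Esrrb line over the NanogKO line and -1.47 ± 0.38 (adjusted p = 0.0272) in the NanogKO:Esrrb:Nanog line over the NanogKO:Esrrb line. The second call of Igf2 was lost without NanogKO:Esrrb replicate 2 or 3 or any NanogKO:Esrrb:Nanog replicate (adjusted p 0.0587 to 0.0861). Its imprinted neighbour H19, a noncoding RNA, had 2.03 to 2.44 CPM, 4.77 to 7.77 CPM and 20.6 to 34.8 CPM in the 3 lines, and differed by -2.22 ± 0.21 (adjusted p = 6.96e-06) and -1.44 ± 0.24 (adjusted p = 0.00282) in those comparisons. Igf1r, the receptor and also 1 of 3 genes shared with the let-7 target list, differed by -1.05 ± 0.12 (adjusted p = 3.61e-05) in the first and was higher by 0.53 ± 0.12 (adjusted p = 0.0156) in the second. Igf1r thus had the order of Igf2bp2 across the lines, and Igf2 and H19 that of Lin28a.

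Of 7 mRNAs known to be repressed by Trim71, 6 were tested, and 5 were higher and 1 lower in the NanogKO:Esrrb line than in the NanogKO line, where Trim71 itself was not called and 24.2% of all genes were called in each direction. Without NanogKO replicate 2 these counts were 4 and 1, and the lower gene lost its call without NanogKO replicate 1 or NanogKO:Esrrb replicate 2. In the NanogKO:Esrrb:Nanog line 4 were higher and 1 was lower than in the NanogKO line, where 27.2% of all genes were called in each direction, and none was lower without NanogKO replicate 1 or NanogKO:Esrrb:Nanog replicate 2 or 3. Mbnl1, a splicing regulator, had 11.1, 10.8 and 12.7 CPM in NanogKO:Esrrb:Nanog libraries, 10.5, 10.5 and 10.7 CPM in NanogKO:Esrrb libraries and 5.24, 4.62 and 4.32 CPM in NanogKO libraries (log2 fold change of the NanogKO:Esrrb line over the NanogKO line 1.17 ± 0.12 SE, adjusted p = 1.19e-05). Egr1, an immediate early transcription factor, was higher in that comparison by 0.96 ± 0.22 (adjusted p = 0.00345) and Cdkn1a, the cyclin-dependent kinase inhibitor p21, by 0.47 ± 0.11 (adjusted p = 0.00446). None of the 6 was called between the NanogKO:Esrrb:Nanog line and the NanogKO:Esrrb line by the edgeR test over all libraries, with 1 higher and 1 lower at an unadjusted p under 0.05. Those were Egr1 (0.67 ± 0.21, adjusted p = 0.0537) and Rbl2, a retinoblastoma-family pocket protein (-0.40 ± 0.13, adjusted p = 0.0568), and DESeq2 called both (adjusted p = 0.0148 and 0.0366), as did the fit with the replicate block (0.0218 and 0.037).

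**Figure D5:**
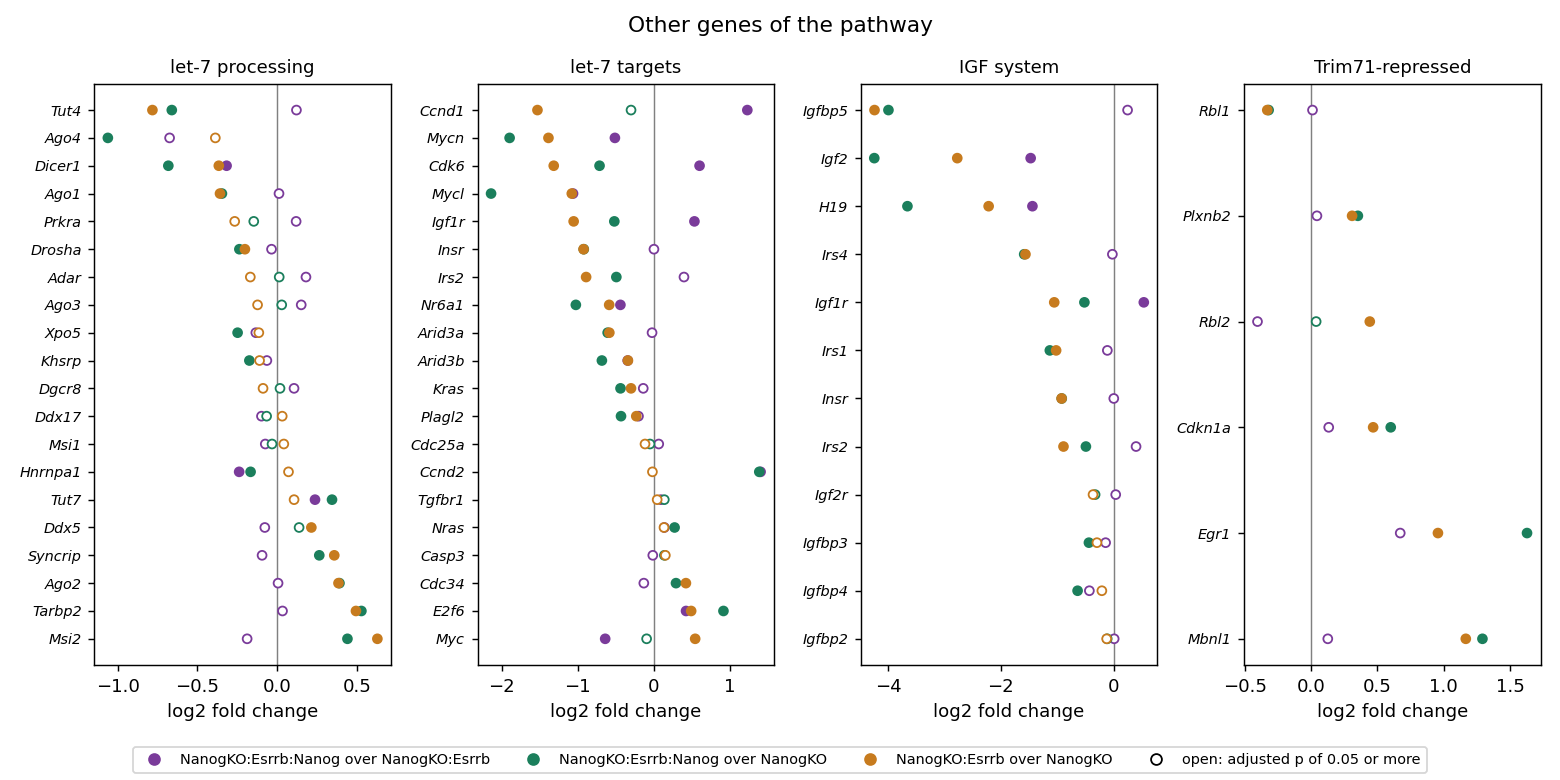
Log2 fold change (x axes, each panel with its own range) of the other tested genes of the pathway, one row per gene, in the 3 comparisons, with filled points called at an adjusted p under 0.05. No called point of the IGF panel lies above 0 except Igf1r in the NanogKO:Esrrb:Nanog line over the NanogKO:Esrrb line (0.53), and the processing genes fall on both sides of 0.

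To describe which genes ran most alike, log2 CPM centred on each gene's mean was compared over the 9 libraries among 10024 protein-coding genes. The nearest to Lin28a were Sept6 and Fam3c, with root mean square differences of 0.111 and 0.118. Sec16a and Ston2 were nearest to Lin28b (0.0793 and 0.0834), and Tspan5 and Srgap3 to Igf2bp2 (0.224 and 0.257). The genes closest to Hmga2, Lpar4 and Dpp4, lay at 0.341 and 0.348, the largest distances of the 9. Such a distance also grows with the size of a gene's differences and with the noise of low counts. Hmga2 differed widely between lines and had the lowest counts of the 9 in NanogKO:Esrrb:Nanog libraries. Whether its distance marks an unusual pattern was not tested. For Igf2bp1 and Trim71, which differed little between lines, the closest were Paip2b (0.0261) and Bag5 (0.0346). The nearest to Hmga1 was H2afx (0.0475), to Igf2bp3 Camk2b (0.0904) and to Dis3l2 Vti1a (0.0572), and no member was among the 2 nearest of another.

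Markers of other cell types were measured beside these results. The summed level of 9 trophoblast markers was 49.5 to 57.6 CPM in NanogKO:Esrrb:Nanog libraries, 35.3 to 62.9 CPM in NanogKO:Esrrb libraries and 104 to 266 CPM in NanogKO libraries, with the top value in replicate 2 and Elf5 at 0 in the NanogKO:Esrrb line. Krt18, Krt8, Tfap2c and Krt19 made up most of that top value, at 102, 74.2, 51.3 and 20.1 CPM. Of 8 tested, 6 were lower in the NanogKO:Esrrb line than in the NanogKO line and none was higher, where 24.2% of all genes were lower. Eomes and Hand1 were not called (adjusted p = 0.506 and 0.327). The lower ones had the direction of Igf2bp2, Igf2 and H19, and 5 of 8 were lower without NanogKO replicate 2.

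For 12 primitive endoderm markers the sums were 539 to 671 CPM, 377 to 506 CPM and 491 to 752 CPM in the same lines, with none at 0. Lama1, Col4a1, Lamb1 and Lrp2 made up most of these sums, which therefore say little of Gata6 and Pdgfra. Their means were 356, 60.1, 57.4 and 97.8 CPM in the NanogKO:Esrrb:Nanog line and 136, 108, 65.2 and 84.7 CPM in the NanogKO:Esrrb line. In the NanogKO line the means of Lama1, Col4a1, Lamb1 and Lrp2 were 43.6, 48.3, 166 and 329 CPM. The markers did not move together: of 11 tested, 5 were higher and 3 lower in the NanogKO:Esrrb line than in the NanogKO line. The higher ones were Gata6, Pdgfra, Sox7, Col4a1 and Lama1, and the lower ones Dab2, Lamb1 and Lrp2. Of all genes, 24.2% were called in each direction. In the NanogKO:Esrrb:Nanog line over the NanogKO:Esrrb line, 1 was higher (Lama1) and 4 were lower (Gata6, Pdgfra, Dab2 and Cubn). There 13.2% of all genes were called, 5.43% higher and 7.75% lower.

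For 8 fibroblast markers the sums were 1532 to 1682 CPM, 1810 to 1976 CPM and 1660 to 1856 CPM, with Postn at 0 in both lines with Esrrb and Col3a1 at 0 in the NanogKO:Esrrb:Nanog line. Fn1 made up most of these sums, at mean levels of 1257, 1601 and 1686 CPM in the same lines. Of 6 tested, 3 were lower and 2 higher in the NanogKO:Esrrb line than in the NanogKO line, where 24.2% of all genes were called in each direction. The 2 higher were Vim, by 5.64-fold (adjusted p = 0.000147), and Thy1, by 3.95-fold (adjusted p = 0.000187). The 3 lower were Acta2, a smooth muscle actin, and the collagens Col1a1 and Col1a2. Acta2 had 0 to 0.105 CPM in NanogKO:Esrrb:Nanog libraries, 0 to 0.0944 CPM in NanogKO:Esrrb libraries and 7.69, 54.3 and 16.1 CPM in NanogKO libraries (adjusted p = 2.6e-05 for the NanogKO:Esrrb line over the NanogKO line). Col1a2 had 0.111 to 0.245 CPM in NanogKO:Esrrb:Nanog libraries, 0.22 to 0.311 CPM in NanogKO:Esrrb libraries and 2.41, 16.8 and 4.42 CPM in NanogKO libraries, and was 29.3-fold lower in the NanogKO:Esrrb line than in the NanogKO line (adjusted p = 0.000197). Col1a1 was 4.50-fold lower there (adjusted p = 0.00697). Acta2, Col1a1 and Col1a2 were highest in NanogKO replicate 2, as was Igf2. They had the direction of Igf2bp2, Igf2 and H19 in this comparison, and Vim and Thy1 had the opposite one.

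For 7 neuroectoderm markers the sums were 78.3 to 128 CPM, 60.1 to 93.7 CPM and 60.7 to 81.4 CPM. Tubb3 made up most of these sums, at mean levels of 76.7, 60.1 and 41.7 CPM in the same lines. Of 5 tested, 1 was higher (Pou3f2) and 2 were lower (Pax6 and Nes) in the NanogKO:Esrrb line than in the NanogKO line. There 24.2% of all genes were called in each direction. In the NanogKO:Esrrb:Nanog line 3 were higher and 1 was lower than in the NanogKO line, against 27.2% in each direction. Whether cells of these types were present, and their part in the results, was not tested. Without NanogKO replicate 2, the other NanogKO libraries still had trophoblast sums of 104 and 152 CPM, and the log2 fold change of Igf2bp2 in the NanogKO:Esrrb line over the NanogKO line was -2.73 (adjusted p = 1.02e-05).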

How the data were processed

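Total RNA of sorted cells was depleted of ribosomal RNA and made into NEBNext libraries, per the labels' protocols. The submitters' processing notes name bcl2fastq 2.19.1, STAR 2.5.3a and the build mm10 without roles. The deposited values are unscaled whole-number counts per Ensembl gene, per the file headers and the values. No source used here gives the annotation, the strand or the counting settings. Of the table's columns, 9 matched the samples by name and 6 were not used here.

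The counts were tested with edgeR 4.0.16 in R 4.3.3 (default low-count filter over the 3 groups, TMM factors, line as the only term, all 9 libraries, Benjamini-Hochberg adjustment over 16198 genes, threshold 0.05). A standard error is the absolute log2 fold change over the square root of F. DESeq2 1.42.0 and the other alternatives are in the closing section. Levels per length used the union of GENCODE M21 exons, and shares within families were tested by exact permutation of the libraries. Depth was 21808120 to 32496267 counts per library. The procedure was tested on simulated data in which a small share of genes was changed. It was not tested where as many genes differ as between these lines. Gene names and 3′ UTRs came from GENCODE M21 (52489 of 52636 IDs matched), microRNA sequences from RefSeq.

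The 9 genes and the lists were chosen with earlier results of these data known. Beside the 9, the text names from each pathway list the 3 genes with the smallest p in the NanogKO:Esrrb line over the NanogKO line and the 2 with the smallest p in the NanogKO:Esrrb:Nanog line over the NanogKO:Esrrb line, the 2 nearest genes by likeness, and Nanog and Esrrb. Hmga1b, Malsu1, Dicer1, the uncalled IGF genes, marker genes at 0, Gata6, Pdgfra, Pecam1 and all other marker genes named singly were named after their values were seen. The seed matches were also searched after values were seen.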

Additional observations from a re-analysis of the deposited data

How the results depend on the processing

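Results were recomputed with DESeq2, with library totals alone or median-of-ratios factors as the scaling, with no low-count filter or one of at least 5 CPM in 3 libraries, with only the 2 groups compared, against a fold of 1.5, with a replicate block, and without each library. Of 459 recomputed fold changes of the 9 genes, 431 kept direction and call, 19 lost a call, 4 gained one and 5 turned, all 5 uncalled and near 0. All concerned the NanogKO:Esrrb:Nanog line over the NanogKO line: Igf2bp1 was at 0.0097 with library totals alone and ranged from -0.096 to 0.027 with single libraries left out, and Trim71 ranged from -0.024 to 0.041. Against a fold of 1.5, members called in the NanogKO:Esrrb line over the NanogKO line were 0 higher and 2 lower, in the NanogKO:Esrrb:Nanog line over the NanogKO:Esrrb line 0 higher and 1 lower, and in the NanogKO:Esrrb:Nanog line over the NanogKO line 3 lower. This alternative asks for a larger change. With single libraries left out, the members higher ranged from 0 to 1 in the first and in the second comparison, and those lower from 6 to 7 in the third. In the second comparison, 3 were higher with no low-count filter and 0 with only the 2 groups compared; the cause was not tested. With the replicate block 2 were higher there, Lin28b and Igf2bp2, and the block changed no other call of the 9 genes. Same-numbered libraries deviated together with correlations of -0.02 to 0.28, and their own number was the best match in 5 of 9 pairs, replicate 2 in all 3 comparisons among them, but in no comparison for every number; the labels name nothing that a number stands for, and the samples were not treated as paired. With the longest transcript as length, the difference in share was -1.69 points for Lin28b (NanogKO:Esrrb minus NanogKO), and for Hmga2 -3.98 (NanogKO:Esrrb:Nanog minus NanogKO:Esrrb) and -1.40 points (NanogKO:Esrrb:Nanog minus NanogKO), with unchanged direction. The lowest counts behind a member were 87 to 170, for Hmga2 in NanogKO:Esrrb:Nanog libraries, and both Hmga2 calls that use them held in all 17 alternatives.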
